A study of Mus musculus with 8 samples.

Results

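The cell cycle genes are 49 mouse genes that dividing cells switch on during DNA replication (S phase) and during the preparation and execution of mitosis (G2/M phase), taken from a fixed list out of the 30406 genes shared by all deposited count tables. Of these, 17 belong to the S phase side, 28 to the G2/M side and 4 (Stmn1, Hmgb2, Cks1b and Cks2) were assigned to neither. They were followed through 8 single-cell RNA-seq libraries of CD45iv-CD45+ leukocytes, which are cells that an antibody given into the blood shortly before perfusion did not reach. The cells were sorted from adult male C57BL/6 mice and came from brain parenchyma, pia mater and dura mater. There were 3 control libraries (1 per tissue), 4 libraries taken 24 h after transient middle cerebral artery occlusion (MCAO, a model of ischaemic stroke; 2 from brain, 1 from pia, 1 from dura) and 1 brain library taken at 72 h. The labels give these mice no other treatment. The sources call the controls naive in places and sham-operated in others, the study states that replicate experiments were pooled for each compartment without giving the mice behind each library, and the control pia library is named for brain in its title and for pia in its other labels.

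In a resting leukocyte most of these genes are silent. Before S phase, the Mcm proteins are loaded onto replication origins with the help of Cdc6 and Cdt1, and E2F factors switch on the enzymes that make deoxynucleotides and copy DNA. Later, the B-Myb and FoxM1 factors switch on cyclin B, the mitotic kinases, the kinetochore and the spindle. Microglia and the macrophages of the brain borders renew themselves slowly in the tissue, neutrophils are made by dividing precursors in bone marrow, including that of the skull next to the dura, and neutrophils themselves no longer divide.

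The libraries held 6591898 to 20754181 unique molecular identifiers (UMIs, each a counted transcript molecule) and 36854 cell barcodes, of which the authors' annotation placed 32457 in 21 clusters, with a median of 1071.5 to 2501 UMIs per annotated cell and library. One cluster of 257 cells was called prolif_cells by the authors. A shorter gene list (31053 genes) was used for replicate 2 of brain at 24 h and for brain at 72 h than for the other 6 libraries (32285 genes). Pairs of libraries with the longer list shared 12 to 43 barcodes and the pair with the shorter list shared 13, whereas the 12 mixed pairs shared 0 to 2. Kit version 3 is listed for dura at 24 h and brain at 72 h, and version 2 for the others. Dura at 24 h shared 12 to 35 barcodes with each library of the longer list and 1 with brain at 72 h. The listed kit versions thus do not follow the gene lists or the shared barcodes. Where the kit version is used as a term below, it is the listed one. Results that rest on these libraries are therefore also given with the gene list or the listed kit version as a term, or with a library left out. Brain at 72 h is the only library of its time and has its own term. Outside the 72 h comparison, the gene list term therefore in effect leaves out replicate 2 of brain at 24 h. The kit version term likewise leaves out dura at 24 h. Neither term can tell an effect of the gene list or kit from that of the single library.

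Dura held the most cell cycle transcripts. Summed over the 49 genes, the level was 2426 CPM (UMIs of the genes scaled to a library total of 1000000) in dura of control mice and 1901 CPM in that of 24 h. In pia it was 990 CPM in the control library and 814 CPM at 24 h. In brain it was 605 CPM in the control library, 602 CPM in replicate 1 and 1254 CPM in replicate 2 at 24 h, and 1389 CPM at 72 h. Both dura libraries thus lay above all 6 others, and the 2 brain libraries with the shorter gene list lay above the other 2 brain libraries. In such sums, fewer cycling cells and less RNA per cycling cell cannot be told apart.

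**Figure D1:**
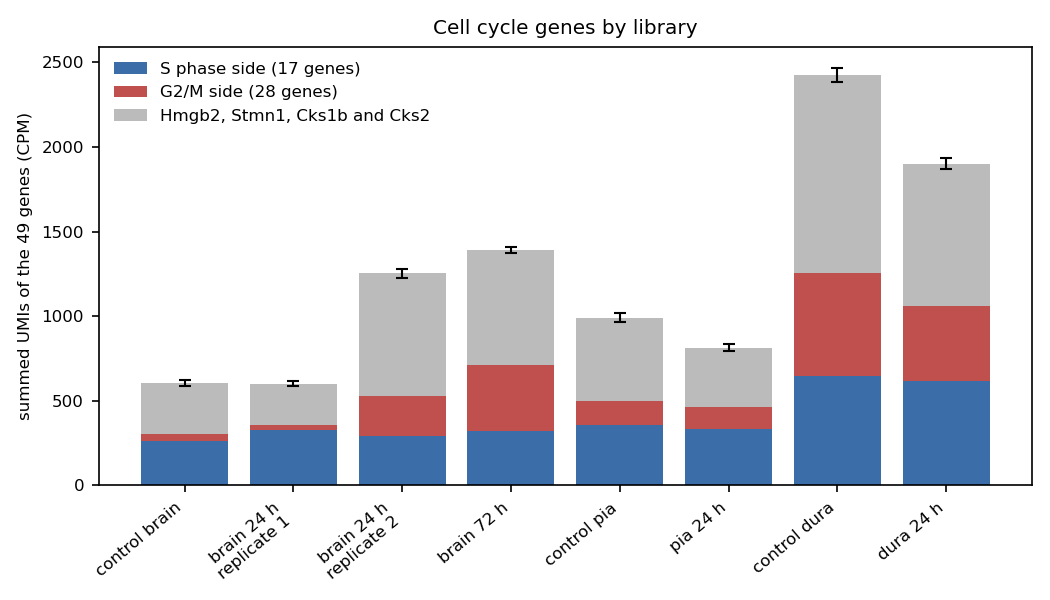
Summed UMIs of the 49 cell cycle genes as a share of all UMIs of annotated cells (y axis, CPM) in each of the 8 libraries (x axis), divided by phase side, with exact 95% Poisson intervals of the sum that cover counting error only. The 2 dura libraries reach 2426 and 1901 CPM, and all 6 others stay at or below 1389 CPM.

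The G2/M side moved more between libraries than the S side. The S genes summed to 265 CPM in control brain, 326 and 294 CPM in brain at 24 h (replicates 1 and 2), 323 CPM in brain at 72 h, 357 and 336 CPM in pia (control and 24 h), and 646 and 620 CPM in dura (control and 24 h). The G2/M genes summed to 41.2 CPM in control brain, 31.4 and 233 CPM in brain at 24 h, 391 CPM in brain at 72 h, 139 and 126 CPM in pia, and 607 and 443 CPM in dura. Among annotated cells, brain at 24 h replicate 1 and control brain thus held the fewest G2/M transcripts. The most genes detected in an annotated cell were 1466 in control brain and 1972 in replicate 1, but 2969 in replicate 2 and 2994 at 72 h. Among barcodes without a cluster, the centromere and kinetochore genes summed to 148 CPM in control brain and 9.74 CPM in replicate 1. In annotated cells these sums were 17.5 and 12.9 CPM. The part of the authors' filters in these levels was not tested. The S sums of control brain and replicate 1 lay near those of the other brain libraries. They include Pcna, which was higher in these 2 libraries (values below). The origin licensing genes summed to 86.1 CPM in control brain and 122 CPM in replicate 1. They summed to 152 CPM in replicate 2 and 184 CPM at 72 h, so the likeness of the S sums did not hold for all S genes.

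The promoters of the 2 sides differ in the elements known to bind the factors named above, and 4 are printed to show them. RefSeq windows (GRCm38.p6, 250 bases before to 50 after the start of a gene) matched 41 of the 49 genes. The cell cycle homology region (CHR, TTTGAA on either strand), which B-Myb and DREAM complexes bind, occurred in 19 of 24 matched G2/M genes and in 1 of 14 S genes (Mcm2), against 20.2% of all genes with a window. The CCAAT box (CCAAT on either strand), bound by NF-Y, occurred in 20 of 24 G2/M genes and 9 of 14 S genes, against 41.1% of all genes. An E2F element (TTTGGCGC or TTTCGCGC on either strand) occurred in 7 of 14 S genes and in 1 G2/M gene (Cdk1), against 0.929% of all genes. The 160 bases before the start are given below 5′ to 3′ on the strand of the gene, with these letters in capitals; they lie at chr10:69352913-69353072 (minus strand) for Cdk1, chr11:99024190-99024349 (minus) for Top2a, chr7:135716380-135716539 (minus) for Mki67 and chr8:75109349-75109508 (plus) for Mcm5. In Mcm5 the capitals at the left are 2 overlapping E2F elements on opposite strands.
Cdk1: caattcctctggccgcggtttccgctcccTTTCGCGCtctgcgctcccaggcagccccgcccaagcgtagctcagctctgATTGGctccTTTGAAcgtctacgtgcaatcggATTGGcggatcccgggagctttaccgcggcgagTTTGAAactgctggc
Top2a: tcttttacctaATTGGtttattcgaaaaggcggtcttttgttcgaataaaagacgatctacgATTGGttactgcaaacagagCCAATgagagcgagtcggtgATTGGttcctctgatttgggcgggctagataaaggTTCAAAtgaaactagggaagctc
Mki67: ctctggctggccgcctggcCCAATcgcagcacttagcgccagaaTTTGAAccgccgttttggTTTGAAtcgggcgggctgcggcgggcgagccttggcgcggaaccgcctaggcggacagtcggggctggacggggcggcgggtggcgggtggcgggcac
Mcm5: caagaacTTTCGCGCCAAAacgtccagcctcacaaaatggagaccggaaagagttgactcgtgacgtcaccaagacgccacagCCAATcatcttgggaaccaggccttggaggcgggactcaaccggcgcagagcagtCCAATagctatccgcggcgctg
A match of these letters is a description of the window and was not tested for binding.

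Origin licensing and DNA synthesis genes, the S side proper, differed from gene to gene in how far they separated the libraries. The 9 licensing genes (Mcm2 to Mcm7, Cdt1, Cdc6 and Gmnn) summed to 86.1 to 184 CPM in brain, 138 and 125 CPM in pia and 256 and 247 CPM in dura. Mcm5 (chr8:75109569-75128439 in GRCm38), a subunit of the replicative helicase, stood at 3.45 CPM in control brain, 8.82 and 15.6 CPM in brain at 24 h, 13.9 CPM in brain at 72 h, 12.1 and 7.43 CPM in pia (control and 24 h) and 23.1 and 24.4 CPM in dura. Mcm3, another helicase subunit, lay between 25.9 CPM in pia at 24 h and 40.1 CPM in brain at 72 h, and hardly separated the libraries. Rrm2, the subunit that limits ribonucleotide reductase, did separate them: it was 88.6 and 79.3 CPM in dura (control and 24 h), 16.4 and 7.17 CPM in pia, and 2.01, 0.344, 7.87 and 7.67 CPM in brain (control, 24 h replicates 1 and 2, 72 h).

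Pcna (chr2:132249162-132253314), the sliding clamp of DNA polymerases, moved against the rest. It stood at 124 CPM in control brain, 144 CPM in brain at 24 h replicate 1, 145 and 147 CPM in pia and 164 and 157 CPM in dura, but at 58.5 CPM in brain at 24 h replicate 2 and 46.6 CPM in brain at 72 h. Tyms, which makes thymidylate, was the other gene lowest in those 2 libraries, with 11.1 and 12.6 CPM against 14.3 to 32.8 CPM elsewhere. These are the libraries with the shorter gene list, and Pcna was lower in them than in every library of the longer list in 15 of the 18 clusters that both kinds of library held. The part of the gene list in this was not tested.

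The cyclins with Cdk1 and the Cks proteins summed to 73.8 to 116 CPM in brain, 168 and 121 CPM in pia and 392 and 312 CPM in dura. Cdk1 (chr10:69335146-69352938), the kinase that drives entry into mitosis, was 3.59 CPM in control brain, 3.9 and 2.97 CPM in brain at 24 h, 7.92 CPM in brain at 72 h, 8.78 and 6.78 CPM in pia, and 25 and 22.5 CPM in dura. Cks2 (chr13:51645232-51650660), a small protein that binds Cdk1, was 48.4 to 57.1 CPM in the 4 brain libraries, 124 and 77.3 CPM in pia and 216 and 173 CPM in dura. For both genes the dura libraries stood clear of all others.

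The mitotic kinases, the spindle checkpoint and the anaphase-promoting complex (APC/C) summed to 7.75 CPM in control brain, 5.5 and 27.6 CPM in brain at 24 h, 64.8 CPM in brain at 72 h, 19.3 and 20.0 CPM in pia and 114 and 77.8 CPM in dura. Aurka (chr2:172356190-172370535), the kinase of the spindle poles, was 1.29 CPM in control brain, 1.49 and 2.08 CPM in brain at 24 h, 4.89 CPM in brain at 72 h, 3.44 and 5.61 CPM in pia and 14.9 and 7.3 CPM in dura. Cdca3 (chr6:124829547-124833701), which promotes degradation of the Cdk1 inhibitor Wee1, was 0.861 CPM in control brain, 0.687 and 2.97 CPM in brain at 24 h, 11.6 CPM in brain at 72 h, 2.76 and 2.22 CPM in pia and 15.2 and 13.4 CPM in dura. Ube2c, the ubiquitin-conjugating enzyme of the APC/C, was 1.15, 0.115, 8.47 and 16.7 CPM in the brain libraries in the same order, 4.13 and 4.17 CPM in pia and 33.9 and 22.1 CPM in dura. In this group brain at 72 h came closest to dura.

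Among the centromere and kinetochore genes, Spc25 (chr2:69193895-69206194) and Ndc80 (chr17:71496100-71526857) encode parts of the complex that holds microtubules to chromosomes. Spc25 was 2.44 CPM in control brain, 1.6 and 4.01 CPM in brain at 24 h, 5.2 CPM in brain at 72 h, 7.4 and 2.35 CPM in pia and 25.9 and 16.6 CPM in dura. Ndc80 was 1.87 CPM in control brain, 0.802 and 2.23 CPM in brain at 24 h, 2.66 CPM in brain at 72 h, 4.82 and 5.74 CPM in pia and 15.9 and 12.4 CPM in dura. Cenpa, the histone of the centromere, followed another order, with 4.59 CPM in control brain, 6.3 and 68.3 CPM in brain at 24 h, 114 CPM in brain at 72 h, 26.7 and 50.1 CPM in pia and 95.3 and 88.6 CPM in dura. Stmn1 (chr4:134468320-134473843), a protein that takes microtubules apart and is found in dividing and in immature cells, was 49.4 CPM in control brain, 30.1 and 38.9 CPM in brain at 24 h, 67.5 CPM in brain at 72 h, 101 and 58.7 CPM in pia and 253 and 176 CPM in dura.

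The chromatin genes did not single out dura. Mki67 (chr7:135689784-135716361), the Ki-67 antigen used to stain dividing cells, was 0.574 CPM in control brain, 0.344 and 18.7 CPM in brain at 24 h, 29.9 CPM in brain at 72 h, 4.82 and 3.78 CPM in pia and 14.2 and 13.9 CPM in dura. It was the one gene of the 49 that was higher in both libraries of the shorter gene list than in all 6 others. Top2a (chr11:98992943-99024189), which untangles replicated DNA, was 3.16 CPM in control brain, 2.64 and 26.6 CPM in brain at 24 h, 30.9 CPM in brain at 72 h, 6.03 and 5.74 CPM in pia and 28.1 and 18.1 CPM in dura. Hmgb2 (chr8:57511907-57515999), a chromatin protein common in proliferating blood cells, was 182 CPM in control brain, 147 and 618 CPM in brain at 24 h, 532 CPM in brain at 72 h, 250 and 191 CPM in pia and 641 and 442 CPM in dura.

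Over the whole list, both dura libraries lay above all 6 others for 31 of the 49 genes, and above both pia libraries for 47 (not for Anln and Cdt1). The highest library was control dura for 35 genes, dura at 24 h for 7 and brain at 72 h for 7. The 2 brain libraries of the shorter gene list were both above control brain and brain at 24 h replicate 1 for 39 genes.

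**Figure D2:**
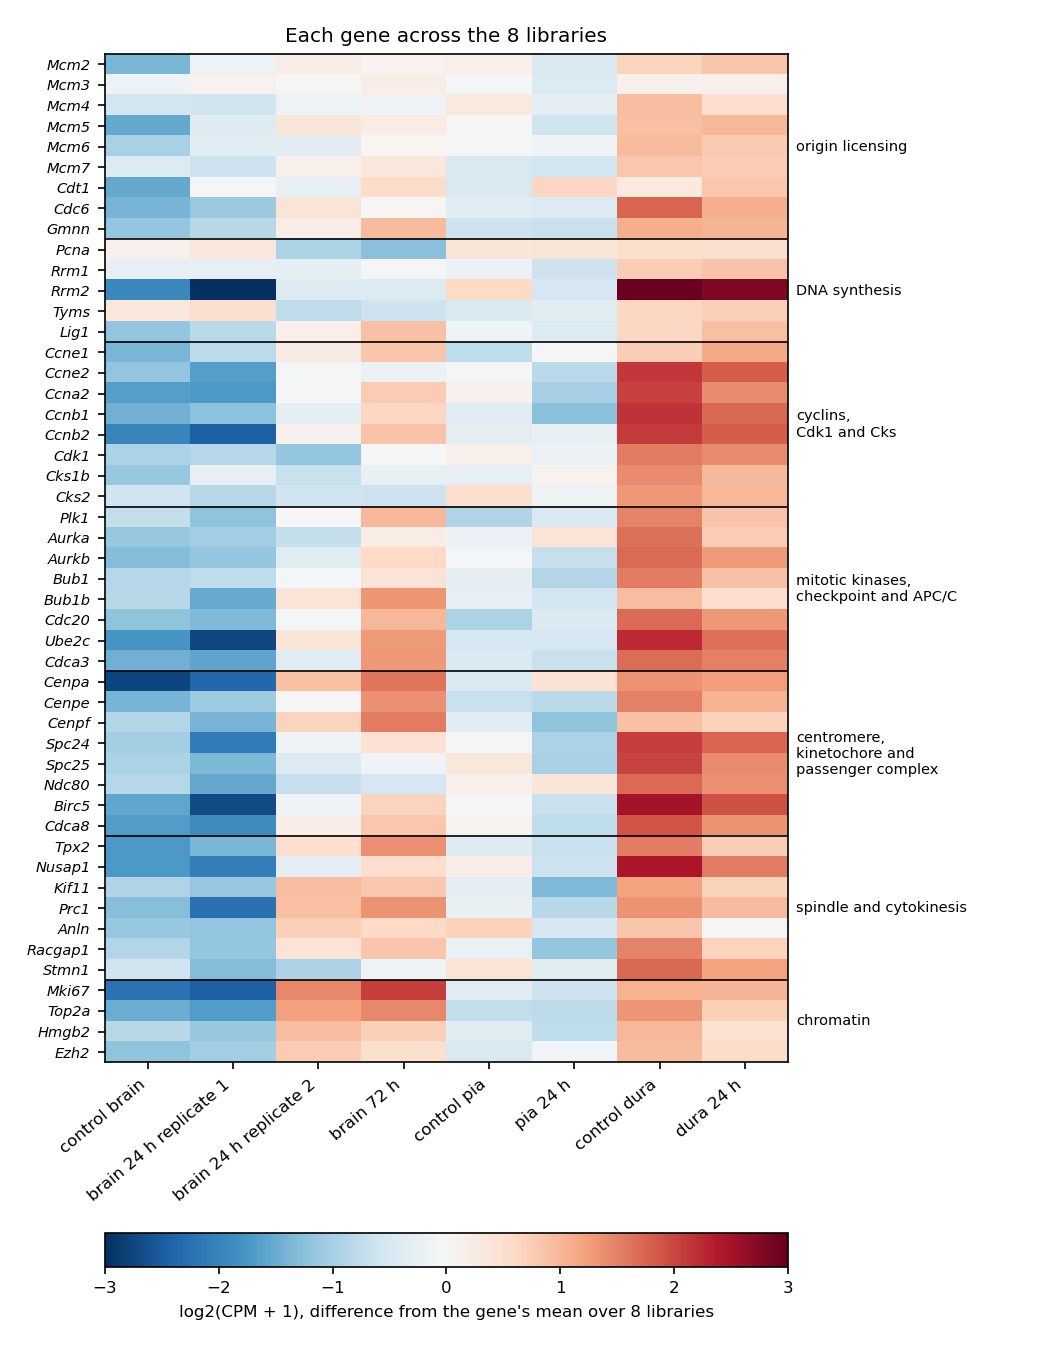
Each of the 49 genes (rows, grouped by role) in each library (columns), as log2(CPM + 1) minus the gene's mean over the 8 libraries (colour scale). The dura columns are highest for 42 genes, while Pcna and Tyms are lowest in replicate 2 of brain at 24 h and in brain at 72 h.

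Leukocytes of dura and brain were then compared over the libraries, with time after MCAO in the model. Brain at 72 h has its own term, so fold changes against brain, here and for pia below, in effect do not rest on it. All 49 genes had a positive fold change (dura over brain), with a median of 2.61 on the log2 scale against -0.14 for all 13437 genes tested, and 7 genes were significantly higher in dura. Calls were made at an adjusted p under 0.05 in edgeR's quasi-likelihood test on UMIs summed per library, adjusted over all genes; 1.33% of all genes tested were called higher and 1.09% lower, and no cell cycle gene was called lower. Stmn1 was higher by 2.61 ± 0.32 (log2 fold change ± SE; edgeR adjusted p = 0.0343), Cdk1 by 2.97 ± 0.41 (0.0354), Ndc80 by 3.38 ± 0.50 (0.0382) and Cks2 by 2.04 ± 0.32 (0.0413). Cdca3 was higher by 3.63 ± 0.63 and Spc25 by 3.12 ± 0.54 (both edgeR adjusted p = 0.0483), and Aurka by 3.03 ± 0.54 (0.0489). Each of these 7 genes was higher in both dura libraries than in all 4 brain libraries. At an unadjusted p under 0.05, 38 of the 49 genes passed, against 22.5% of all genes.

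Each role group had positive fold changes throughout. The 8 cyclin, Cdk1 and Cks genes had a median of 3.35 (range 2.04 to 3.96; 2 called), the 8 mitotic kinase, checkpoint and APC/C genes 3.16 (2 called), the 8 centromere and kinetochore genes 3.10 (2 called) and the 7 spindle genes 2.19 (1 called). The 9 licensing genes had a median of 1.68, the 4 chromatin genes 1.65 and the 5 DNA synthesis genes 1.34, with none called. Rrm2 had the largest fold change, 4.99 ± 1.05, without passing (edgeR adjusted p = 0.0654). Mcm3 had the smallest fold change of the licensing group, 0.39 on the log2 scale, and Pcna had the smallest of the DNA synthesis group, 0.75.

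The tissues differ in their cells. Lymphoid clusters made up 39.1% and 51.9% of annotated cells in dura (control and 24 h) and 1.57% to 12.6% in brain, prolif_cells 2.21% and 0.952% in dura and 0.0436% to 1.75% in brain, and microglia 1.81% and 1.68% in dura and 17% to 86.9% in brain. The 1.75% and the 17% were those of brain at 72 h, on which the fold changes in effect do not rest. The part of these shares in the fold changes was tested only by leaving out prolif_cells, which left all 49 fold changes positive (median 2.19) and 4 calls, Nusap1, Cdc20, Stmn1 and Cks2, against 1.28% of all genes. With the gene list as a term, chosen after seeing the data, 46 genes were called higher (all but Mcm3, Pcna and Tyms; 24.7% of all genes), with DESeq2 33 (8.51%), without the filter on low counts 37 (5.28%), with libraries scaled by their total only 2 (0.35%), and with the kit version as a term 0. Leaving out brain at 24 h replicate 2, in effect the same setting as the gene list term, gave 46 calls (26.3% of all genes). Leaving out brain at 72 h gave 6 (190 of 11945 genes called higher). As the fold changes in effect do not rest on that library, this is no check of them. Leaving out any other library ended all 7 calls, with every fold change still positive. In those fits, and with the kit version as a term (in effect without dura at 24 h), 0 genes were called among all genes tested. The loss of calls was thus not particular to the cell cycle genes.

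**Figure D3:**
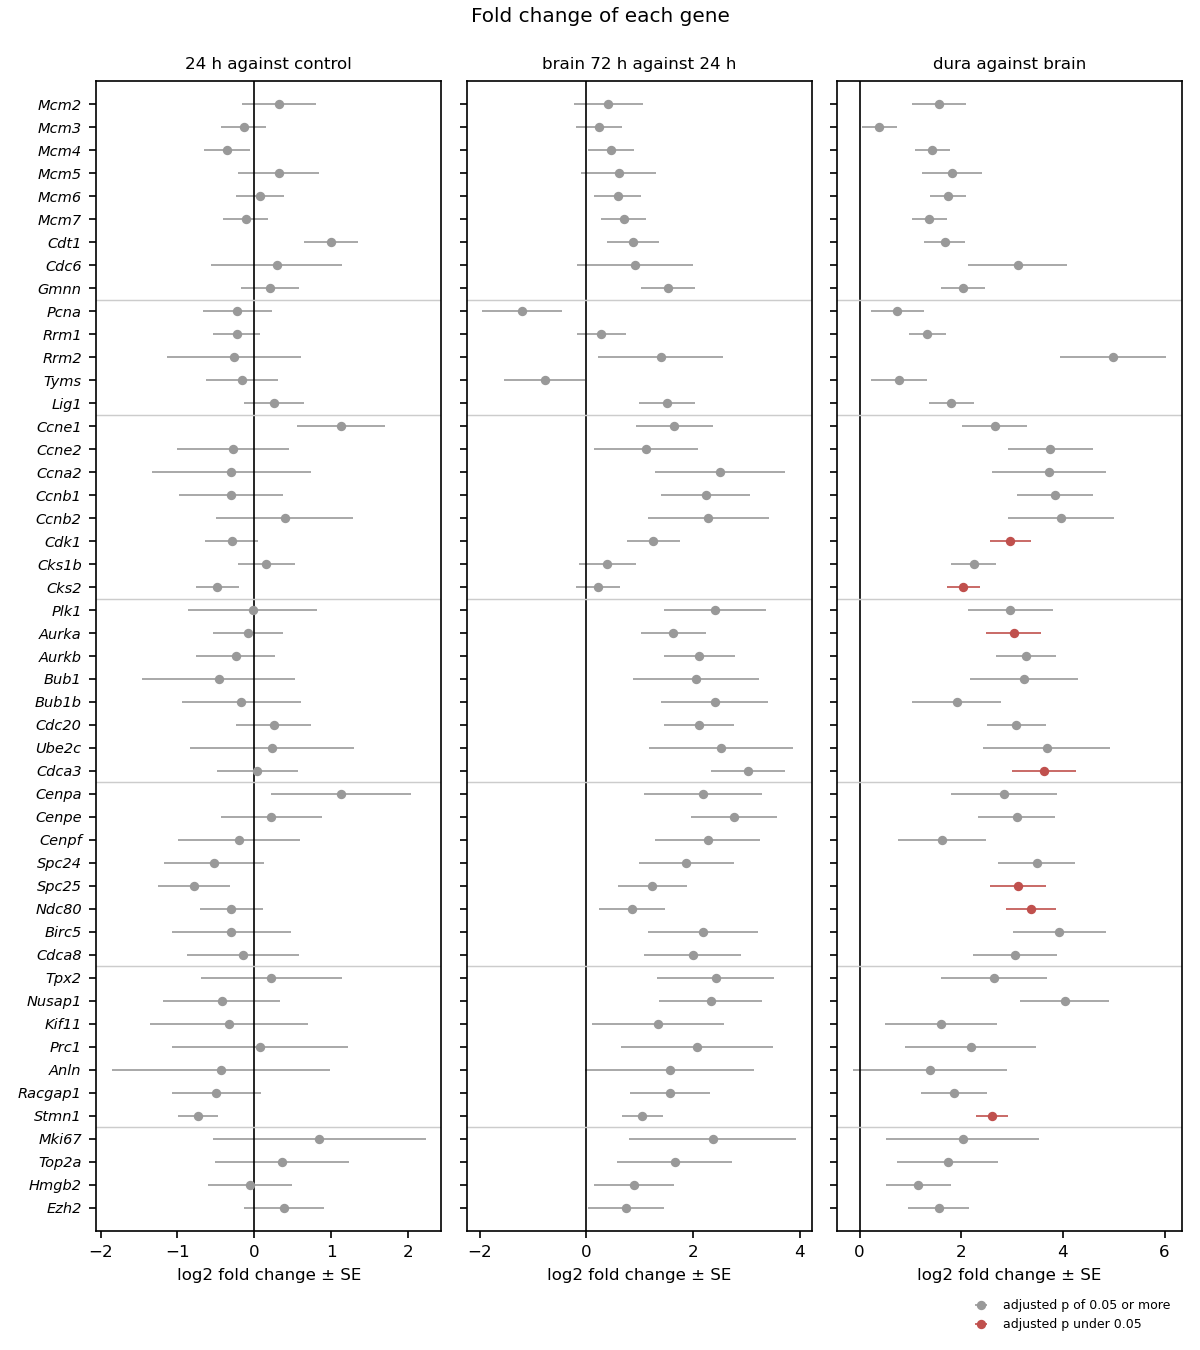
Log2 fold change (x axis, ± SE) of each of the 49 genes (y axis, grouped by role) in the comparisons of 24 h with control, brain at 72 h with 24 h and dura with brain; red points mark genes called by edgeR at an adjusted p under 0.05. All 49 lie above 0 for dura against brain and 7 are called, while the comparison of 24 h with control scatters on both sides of 0.

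With tissue and time as the terms, edgeR called no cell cycle gene between pia and brain or between dura and pia. Against brain, 43 of 49 fold changes were positive with a median of 0.81, but none was called (0.0744% of all genes were called higher, and 6 cell cycle genes passed at an unadjusted p under 0.05 against 15% of all genes). Ndc80 had the smallest p, with 2.08 ± 0.49 (edgeR adjusted p = 0.161), followed by Stmn1 with 1.25 ± 0.31 (0.175). When libraries were scaled by their total only, the median over all genes moved from -0.16 to -0.53 and 35 of the 49 stayed positive, so directions of single genes here depend on the scaling. Between dura and pia all 49 fold changes were positive with a median of 1.72 (dura over pia), none was called (0% of all genes), and 23 passed at an unadjusted p under 0.05 against 4.18% of all genes. With the gene list as a term, in effect without replicate 2, 39 of the 49 were called higher in dura than pia (4.71% of all genes). In pia over brain, 31 were called higher (18.4%). Without the filter on low counts these counts were 8 (0.705%) and 2 (2.79%), and DESeq2 called 3 higher in pia than brain (4.3%). These 3 tissue comparisons share libraries.

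At 24 h after MCAO no cell cycle gene was called, and the balance of directions changed with the libraries in the fit. None of the 49 was called between 24 h and control with tissue in the model (0% of all genes called by edgeR), and 2 passed at an unadjusted p under 0.05 against 3.02% of all genes. DESeq2 called none of the 49 either, while it called 58 of 13437 genes higher and 9 lower. In edgeR the median fold change was -0.14 on the log2 scale, with 20 of 49 positive. That count rested on single libraries and settings: it was 5 without control brain, 11 with the gene list as a term (1 gene, Stmn1, called lower, against 0.848% of all genes), 33 without control pia and 34 without prolif_cells. Stmn1 was at -0.73 ± 0.26 and Mki67 at 0.85 ± 1.38 (edgeR adjusted p = 0.992 for both). The value of Mki67 turned negative without brain at 24 h replicate 2 (-0.21) and with the gene list as a term (-0.24), in effect the same setting. It was also negative without control brain (-0.20). Among single libraries, 13 genes were higher at 24 h than in the control in pia, 8 in dura, 22 in brain replicate 1 and 43 in brain replicate 2. Of the 2 brain replicates at 24 h, replicate 2 was the higher for 41 genes.

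Brain at 72 h was compared with 24 h in the same additive fit of all 8 libraries, with 1 brain library at 72 h and 2 at 24 h. The 24 h term is shared by all tissues. The fold changes therefore also draw on pia and dura at 24 h and their controls, not on brain alone. Of the 49 genes, 47 had a positive fold change (median 1.56 on the log2 scale), the exceptions being Pcna at -1.21 ± 0.74 and Tyms at -0.78 ± 0.76, but none was called (0% of all genes; edgeR). At an unadjusted p under 0.05, 11 passed against 3.96% of all genes, and the G2/M side (28 of 28 positive, median 2.15) had larger changes than the S side (15 of 17, median 0.70). Cdca3 had the smallest p, with 3.03 ± 0.70. Mki67 was at 2.36 ± 1.56, Top2a at 1.65 ± 1.08, Hmgb2 at 0.88 ± 0.75 and Stmn1 at 1.05 ± 0.39 (edgeR adjusted p = 0.872 for Cdca3 and these 4). Mcm5 was at 0.60 ± 0.70 (0.891). Brain at 72 h was higher than both 24 h libraries for 37 genes. Without replicate 2, 37 genes were called higher and 2 lower (Pcna and Tyms) at 72 h, when 27.5% of all genes were called higher; that comparison sets a library of the shorter gene list against libraries of the longer one, and time and gene list cannot be told apart in it. The only library that shares both tissue and gene list with brain at 72 h is replicate 2, and with the gene list as a term Cdca3 was the 1 gene of the 49 called (0.588% of all genes were called higher). Without the filter on low counts, 5 were called (0.536%).

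Within clusters the genes were described, not tested, because the authors' clustering used these very counts. All 49 genes had their highest mean level in prolif_cells, where they summed to 16244 ± 4274 CPM (SD, n = 3 libraries with at least 30 such cells). Granulo_2, a granulocyte cluster, came next with 3867 ± 2378 CPM (n = 6), then NK with 2171 ± 929 CPM (n = 6) and Tc with 1687 ± 334 CPM (n = 8). Granulo_2 was the second cluster for 31 of the 49 genes. From Granulo_2 down, neighbouring means differed by less than the larger of their SDs, to the last, SAMC (stroke-associated myeloid cells in the authors' naming), which had 558 ± 113 CPM (n = 4). As the mean of log2(CPM + 10) over the 49 genes, relative to all annotated cells of the library, prolif_cells stood at 2.72, Granulo_2 at 0.56, NK at 0.19 and Tc at 0.09; the values of NK and Tc turned negative with a pseudocount of 1 (-0.012 and -0.22).

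**Figure D4:**
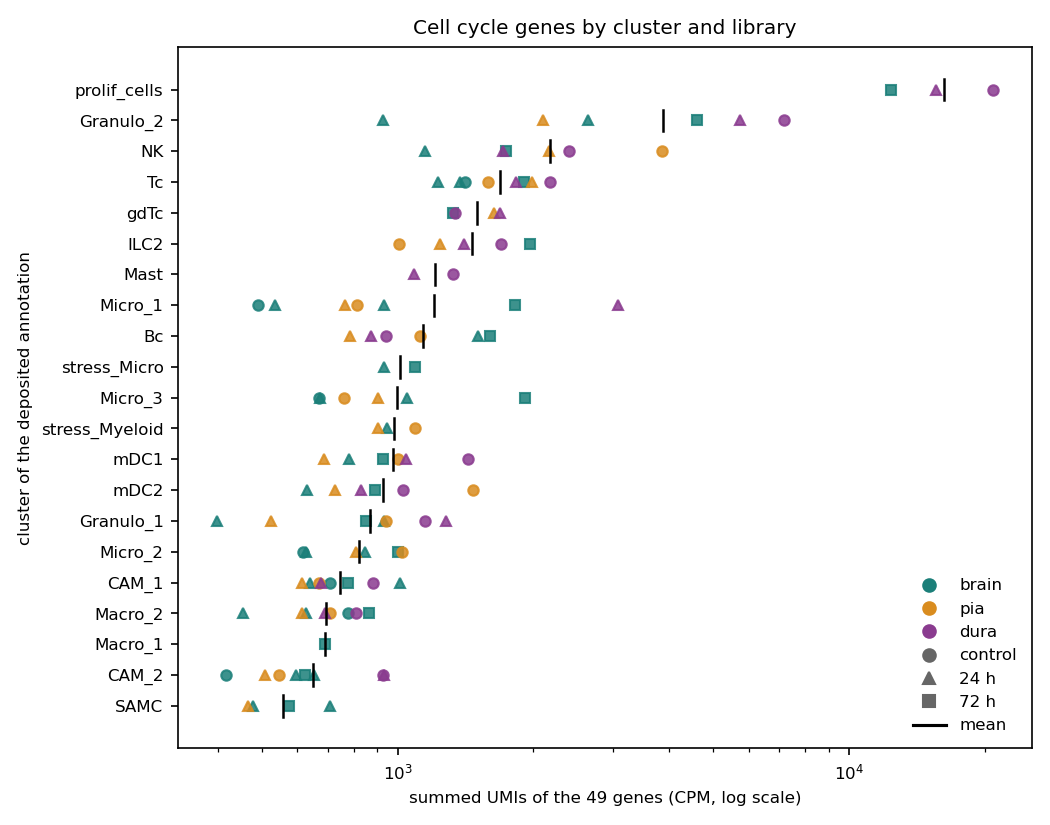
Summed UMIs of the 49 genes (x axis, CPM, log scale) in each annotated cluster (y axis) of each library with at least 30 cells of the cluster (points; colour gives the tissue and shape the time), with the mean over libraries as a black bar. The prolif_cells points lie between 12374 and 20832 CPM, and Granulo_2 spreads from 930 to 7181 CPM.

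The share of prolif_cells with microglia genes differed between brain at 72 h and dura. These libraries differ in tissue, time and gene list at the same time. The 3 larger groups of this cluster were 62 cells of control dura, 43 of dura at 24 h and 106 of brain at 72 h, and the other libraries held 2 to 16. By markers fixed in lists of lineage genes (at least 2 genes of a list detected in a cell), 60 of the 106 cells in brain at 72 h carried microglia genes, against 2 of 62 and 2 of 43 in the dura libraries. In control dura, 19 of 62 carried B cell genes, 11 early B cell genes and 14 dendritic cell genes, and in dura at 24 h 8 of 43 carried B cell genes, 8 early B cell genes and 16 neutrophil precursor genes. The B cell, early B cell, dendritic and neutrophil precursor counts are not given for every group, so no difference is drawn from them. Detecting at least 2 genes of a list depends on depth, and the part of depth in these counts was not tested. Genes of macrophages and monocytes were found in 74 of 106, 42 of 62 and 37 of 43 of these cells and in 58.6% of annotated cells with few cell cycle genes, so they separate these cells little.

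Single genes differed between these groups of cells too. In prolif_cells, Mki67 was 499 CPM in brain at 72 h and 121 and 112 CPM in dura (control and 24 h), and Top2a was 541, 379 and 253 CPM. Pcna went the other way with 153, 808 and 558 CPM, as did Rrm2 with 128, 1179 and 928 CPM, Stmn1 with 946, 2960 and 2175 CPM and Cks2 with 287, 844 and 501 CPM. Brain at 72 h is the only one of these libraries with the shorter gene list, so tissue, time and gene list cannot be told apart here. Only 36.5% of a gene's UMIs lay in prolif_cells in the median (range 5.88% for Cdt1 to 61.9% for Ccna2).

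Cycling cells outside prolif_cells were counted by single cells. Every annotated cell with at least 1000 UMIs was thinned to 1000 (25485 cells; 6972 shallower cells were left out) and called a cell with many cell cycle genes when it had a UMI of at least 5 of the 49. There were 446 such cells, 227 of them among the 247 thinned cells of prolif_cells and 219 (49.1%) in other clusters; without thinning there were 1082, with 828 (76.5%) outside. The limit of 5 is a cut in a falling distribution: 165 cells had 4 of the genes, 72 had 5 and 59 had 6.

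By library, the share of such cells was 0.149% in control brain (6 of 4030), 0.0711% (3 of 4220) and 1.39% (26 of 1868) in brain at 24 h, 3.17% in brain at 72 h (157 of 4945), 1.11% in control pia (26 of 2332), 0.623% in pia at 24 h (20 of 3212), 4.98% in control dura (106 of 2128) and 3.71% in dura at 24 h (102 of 2750). The exact 95% binomial intervals, which cover counting error only, were 0.0547% to 0.324% for control brain, 2.70% to 3.70% for brain at 72 h and 4.10% to 5.99% for control dura. Dura and brain at 72 h were thus high and the other brain libraries of the longer gene list low. These shares are descriptions of the libraries and were not tested. They cover annotated cells only, whose highest gene count differed between libraries (values above for brain). The intervals of the changes below combine the binomial limits of the single libraries. They cover counting error of cells only and leave out the spread between libraries or replicates, so they are no test of a change. From control to 24 h, the share changed by 0.583 percentage points in brain (95% interval 0.284 to 0.924), but by -0.0778 with replicate 1 alone and 1.24 with replicate 2 alone. It changed by -0.492 points in pia (-1.06 to 0.0199) and by -1.27 points in dura (-2.49 to -0.0952); in dura the change was -0.0574 points without prolif_cells. Without thinning the shares ran from 0.326% in control brain to 6.51% in control dura. Cells under 1000 UMIs were left out unevenly. They were 267 of 4297 in control brain and 1600 of 3468 in replicate 2 of brain at 24 h. In brain at 72 h they were 1104 of 6049, in control dura 683 of 2811 and in dura at 24 h 1768 of 4518. The part of this loss in the shares was not tested.

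**Figure D5:**
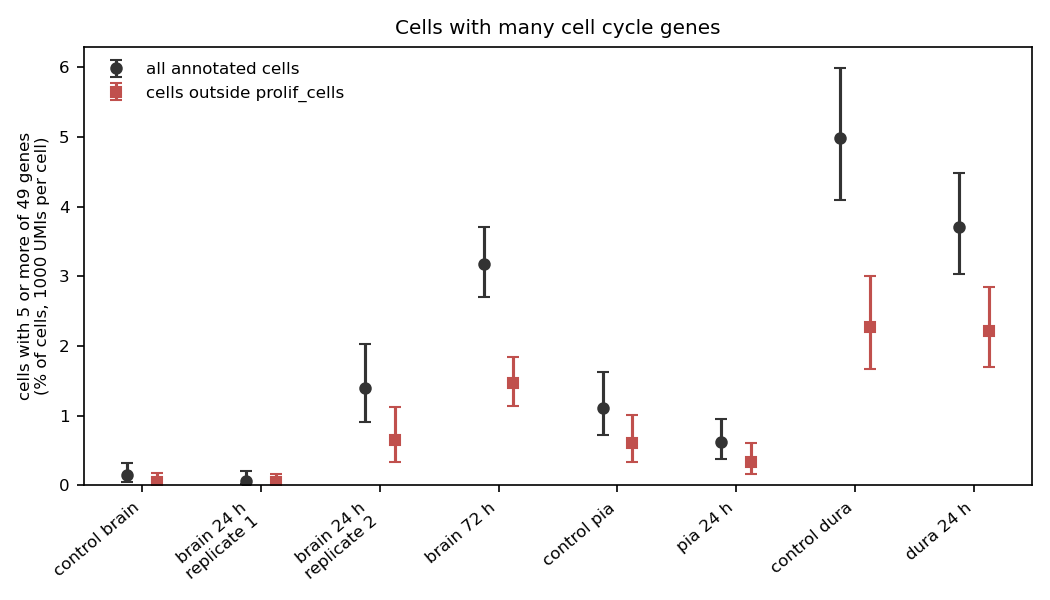
Percent of annotated cells with a UMI of at least 5 of the 49 genes after thinning to 1000 UMIs (y axis) in each library (x axis), for all annotated cells and outside prolif_cells, with exact 95% binomial intervals. Control dura is highest at 4.98% and falls to 2.27% outside prolif_cells, and brain at 24 h replicate 1 is lowest at 0.0711%.

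Granulo_2 held more of these cells than any other cluster outside prolif_cells, 90 of 727 (12.4%, exact 95% interval 10.1% to 15.0%). The next were NK with 12 of 541 (2.22%), Tc with 19 of 969 (1.96%), mDC1 (a dendritic cluster) with 18 of 1089 (1.65%) and Bc with 7 of 451 (1.55%). CAM_1, a border macrophage cluster with a median of 2080 UMIs against 1199.5 in Granulo_2, had 2 of 2918 (0.0685%) at equal depth.

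Within Granulo_2 the cells lay in dura and brain at 72 h for the most part: 23 of 109 in control dura (21.1%), 40 of 244 in dura at 24 h (16.4%), 18 of 135 in brain at 72 h (13.3%), 5 of 188 in brain at 24 h replicate 2 (2.66%), 3 of 7 in control pia and 1 of 29 in pia at 24 h. None of the 13 cells in brain at 24 h replicate 1 and of the 2 in control brain was one. Granulo_2 cells with at least 1000 UMIs were 109 of 146 in control dura, 244 of 359 in dura at 24 h and 135 of 373 in brain at 72 h. Without thinning, over all Granulo_2 cells, the shares were 19.9%, 13.4% and 5.63%. The summed level followed the same order at the top, with 7181 CPM in control dura, 5737 CPM in dura at 24 h and 4610 CPM in brain at 72 h, and Granulo_2 ranked above all other clusters outside prolif_cells in these libraries and in brain at 24 h replicate 2. Granulo_2 alone gave 17.8% and 29.5% of the cell cycle UMIs of the dura libraries (control and 24 h) from 5.19% and 7.95% of their cells.

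Some of the 90 cells carried genes of early neutrophil precursors. Mpo, the myeloperoxidase packed into the first granules, was 514 CPM in these cells and 5.54 CPM in the other Granulo_2 cells of control dura, 554 and 18.2 CPM in dura at 24 h, and 777 and 0 CPM in brain at 72 h. Elane, the elastase of the same granules, was 2236 and 11.1 CPM, 1474 and 45.6 CPM, and 2690 and 0 CPM in the same libraries. Mpo came from few cells, with a UMI in 6 of 23, 7 of 40 and 4 of 18 of the cells with many cell cycle genes. Of the same list, Ltf was lower in the cells with many cell cycle genes, with 7251 and 11111 CPM in control dura, 9223 and 10863 CPM in dura at 24 h and 6064 and 10506 CPM in brain at 72 h. Retnlg, a gene of mature neutrophils, was also lower, with 579 and 20528 CPM in control dura, 1350 and 28146 CPM in dura at 24 h and 92.0 and 11098 CPM in brain at 72 h. In brain at 24 h replicate 2 and control pia, Mpo was 0 in both sets. All 90 cells had at least 2 of the 5 precursor genes, against 67.5% of the other 637, but the former had more UMIs (median 5869 against 1879 in the other cells). As a sum over the 5 genes, which Ltf and Camp dominate, the log2 ratio was 0.38 ± 0.39 (SD, n = 5 libraries; 4 of 5 positive). The sum of the 5 neutrophil genes, of which Retnlg is one, had a log2 ratio of -0.083 ± 0.24 (2 of 5 positive), and S100a8 of that list was 134190 and 124615 CPM in brain at 72 h. With 5 libraries an exact permutation test cannot give a p below 0.0625, so no call is made from either ratio.

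In brain, microglia with many cell cycle genes were found mostly at 72 h. Over all microglial clusters, 1 of 3571 cells had many cell cycle genes in control brain, 1 of 2798 and 3 of 691 in brain at 24 h (replicates 1 and 2) and 25 of 543 in brain at 72 h (4.60%), of which 13 lay in Micro_3 (of 185 cells) and 11 in Micro_1 (of 131). The summed level in these clusters was 561 CPM in control brain, 599 and 923 CPM at 24 h and 1494 CPM at 72 h. In control pia 0 of 236 microglial cells had many of the genes, which allows a share of up to 1.27% (3 cells of the total), in pia at 24 h 0 of 277 (up to 1.08%), in control dura 0 of 29 (up to 10.3%) and in dura at 24 h 3 of 55. The highest gene count of an annotated cell also differed between the brain libraries (values above). The number of 72 h libraries is 1, and the difference of 72 h from the other brain libraries has no replicate check. These cells come on top of the 60 cells with microglia genes in prolif_cells at 72 h.

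Lymphoid cells with many of the genes were found in every library. In the lymphoid clusters, 45 of 2798 cells had many of the genes, the share being lowest in replicate 2 of brain at 24 h (0.8%) and highest in brain at 72 h (2.60%). Without thinning it was lowest in dura at 24 h (1.24%) and highest in replicate 1 of brain at 24 h (4.17%), so the order depends on the thinning. Tc, the one lymphoid cluster with at least 30 cells in all 8 libraries, summed to 1414 CPM in control brain, 1230 and 1378 CPM in brain at 24 h, 1902 CPM in brain at 72 h, 1582 and 1988 CPM in pia (control and 24 h) and 2171 and 1829 CPM in dura. NK was highest in control pia, with 3853 CPM (95% interval 3415 to 4333, from 46 cells), against 1151 to 2398 CPM in the other 5 libraries. That interval covers counting error of UMIs only and leaves out the spread between cells. Of 42 thinned NK cells in control pia, 2 had many of the genes (4.76%, exact 95% interval 0.582% to 16.2%). Among dendritic cells, 10 of 201 mDC1 cells in control dura had many of the genes (exact 95% interval 2.41% to 8.96%) and 3 of 174 in dura at 24 h (0.357% to 4.96%). Without thinning the counts were 21 of 205 (10.2%) and 18 of 181 (9.94%), so no change is drawn from them.

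The response to MCAO at 24 h was also tested within 3 lineages outside prolif_cells. In lymphoid cells 33 of the 49 genes passed the filter on low counts and none was called (0.0223% of 8967 genes called higher; edgeR), with 15 positive. In macrophages 33 passed and none was called (0% of 11168 genes), with 19 positive. Control brain held 20 dendritic cells, under the minimum of 30, and was left out of their fit. Their 24 h fold changes therefore rest on pia and dura alone, not on brain. In dendritic cells, tested over 7 libraries, 30 passed and none was called (0% of 9023 genes). There, 26 of the 30 fold changes were negative with a median of -0.96, and Top2a at -2.84 ± 0.84, Stmn1 at -1.34 ± 0.52, Birc5 at -2.48 ± 0.96 and Racgap1 at -1.67 ± 0.74 passed at an unadjusted p under 0.05 (edgeR adjusted p = 1 for all). With the gene list as a term, Stmn1, Hmgb2 and Top2a were called lower in dendritic cells (1.25% of all genes; 1 residual degree of freedom), and in macrophages 1 gene, Cks2, was (1.32%). Genes that passed the filter through one high library could enter these counts more easily than others.

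Cells with both S and G2/M genes were common. In prolif_cells the median cell had 7 of the 17 S genes and 12 of the 28 G2/M genes, and 44.0% of cells had the larger share on the S side. The Granulo_2 cells with many of the genes had 8 and 14 and 43.3%. The 129 such cells of other clusters had 4 and 3 and 67.4%, with a median of 2630 UMIs against 4358 in prolif_cells and 5869 in the Granulo_2 cells. A share of genes detected depends on depth, and the part of depth in this was not tested.

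The rest of the cell cycle machinery, 74 further genes of which 73 passed the filter, held no gene called by edgeR in the main setting of the 5 comparisons between libraries. With the gene list as a term, edgeR called 51 higher and 2 lower in dura than brain (24.7% of all genes called higher). It called 24 higher and 2 lower in pia than brain (18.4%), and 22 higher and 1 lower in dura than pia (4.71%). Without the filter, 17 of 74 were called higher and 1 lower in dura than brain (5.28%). DESeq2 called 13 of the 73 higher and 1 lower in dura than brain. Among all 13437 genes it called 1144 higher (8.51%) and 769 lower. Between dura and brain, 26 of 26 further replication and G1/S genes were positive (median 1.35 on the log2 scale; 11 with an unadjusted p under 0.05) and 22 of 25 further G2/M genes (median 1.55; 10). Of the E2F factors and the B-Myb complex 6 of 8 were positive (median 0.82; 3), of the inhibitors and pocket proteins 5 of 8 (0.31; 3) and of the D cyclins and their kinases, which act before S phase, 4 of 6 (0.67; 1). Chaf1b, a histone chaperone of replication, had the smallest p with 2.56 ± 0.47 (edgeR adjusted p = 0.0517), and E2f3 had a value of -1.82 ± 0.44 (0.0864). Between 24 h and control the medians of the 5 lists lay between -0.091 and 0.14.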

How the data were processed

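UMI counts per gene and cell barcode were deposited for each library; per the study's methods and processing notes, the authors made them with Cell Ranger 6.0 on mm10. The authors also deposited a cluster name per barcode, after filtering on genes and mitochondrial share, removing doublets with scDblFinder and integrating with Seurat and Harmony; its embedding columns were not used. Samples were grouped by GEO's labels. UMIs of annotated cells were summed per library, or per library and cluster where at least 30 cells were present, and divided by all UMIs of those cells (CPM). Sums were tested over the 30406 shared genes with edgeR 4.0.16 (R 4.3.3; TMM, filterByExpr, robust quasi-likelihood) with tissue and time as additive terms over 8 libraries (3 residual degrees of freedom), two-sided, with Benjamini-Hochberg adjustment over all genes tested and a threshold of 0.05. Nothing says that libraries came from separate animals, so p-values measure the spread between these samples, which may be technical. Brain at 72 h, alone at its time, adds nothing to that spread. The spread holds the difference between the brain replicates at 24 h, which also differ in gene list. It also holds the differences between tissues in the response to MCAO, so it is not a spread between like samples. DESeq2 1.42.0, total-count scaling, no filter, a fold of at least 2, the kit version, leaving out prolif_cells and leaving out each library were alternatives; the gene list as a term and shares with unannotated barcodes were added after seeing the data. Kit versions came from the study's table of libraries. Single cells were thinned to 1000 UMIs with a fixed seed (Python 3.11.15, numpy 2.4.6, pandas 2.3.3, scipy 1.17.1). Intervals of shares are Clopper-Pearson and those of summed levels exact Poisson. Intervals of a change in share combine the Clopper-Pearson limits of the libraries as a root sum of squares, with replicates averaged. The scripts were tested on simulated data.

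The 49 genes and all lists were chosen with earlier results of these data known. Genes given per library were Mki67, Top2a, Pcna, Mcm5, Hmgb2 and Stmn1, each called gene and the gene of highest level in each role group; Rrm2 and Tyms were added after their values were seen, as were the precursor genes given for Granulo_2. Gene positions are from GENCODE M21 (GRCm38).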

Additional observations from a re-analysis of the deposited data

Results flagged for a closer look

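Barcodes that the authors' annotation gives no cluster had a larger share of cells with many cell cycle genes than annotated barcodes did, in data that no test above used. In dura at 24 h, 18.4% of unannotated barcodes with at least 1000 UMIs (90 of 489, exact 95% interval 15.1% to 22.1%) had a UMI of at least 5 of the 49 genes after thinning, against 15.0% (36 of 240, 10.7% to 20.2%) in control dura. Over all libraries it was 228 of 3707 barcodes (6.15%) against 446 annotated cells (1.75%). In brain at 72 h the shares were close, 3.46% against 3.17%. Of the 228, 177 had more detected genes than any annotated cell of their library, and 126 (55.3%) carried at least 2 neutrophil precursor genes. Detecting 2 such genes depends on depth, and the 228 had a median of 2987.5 detected genes against 835 in annotated cells. Barcodes that the authors removed as doublets have no cluster either. No share in other barcodes is given here, so no cell type is drawn from the 126. The part of the authors' filters in this was not tested.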

How the results depend on the processing

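Counts are of the 49 genes called, and shares of all genes for most settings stand with the comparisons above. Outside the 72 h comparison, the gene list term is in effect the same setting as leaving out brain at 24 h replicate 2. The kit version term is in effect the same as leaving out dura at 24 h. For 24 h against control (0), the gene list as a term gave 1 and leaving out single libraries 0 to 1. The 1 came without brain at 24 h replicate 2, when 99 of 12819 genes were called higher and 120 lower. For brain at 72 h against 24 h (0), no filter gave 5, the gene list 1 and leaving out libraries 0 to 39 (39 without brain at 24 h replicate 2). For dura against brain (7), DESeq2 gave 33, total-count scaling 2, no filter 37, the kit version 0, the gene list 46, leaving out prolif_cells 4 and leaving out libraries 0 to 46. For pia against brain (0), DESeq2 gave 3, no filter 2, the gene list 32 and leaving out libraries 0 to 33. The 33 came without brain at 24 h replicate 2, when 2481 of 12819 genes were called higher and 2408 lower. For dura against pia (0), no filter gave 8, the gene list 39 and leaving out libraries 0 to 39. The latter 39 came without the same library, when 678 of 12819 genes were called higher and 510 lower. Within lineages at 24 h (0 each), the gene list gave 1 in macrophages and 3 in dendritic cells. Leaving out libraries gave 0 to 1 in lymphoid cells, 0 to 1 in macrophages and 0 to 3 in dendritic cells. Without brain at 24 h replicate 2, 145 of 8447 genes were called lower in lymphoid cells, 105 of 10813 in macrophages and 108 of 8790 in dendritic cells. The fold change of Mki67 at 24 h (0.85) became -0.24 with the gene list and ran from -0.21 to 1.68 over libraries left out, with -0.20 without control brain.

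In percentage points, the change in brain at 24 h (0.583) was 1.96 with at least 3 genes, 0.246 with at least 8 and 1.69 without thinning. It was 0.155 with 500 UMIs, 0.298 without prolif_cells and 0.379 without Hmgb2, Stmn1, Cks1b and Cks2. With 1 replicate left out it was -0.0778 to 1.24. The change in pia was -1.08 with at least 3 genes, and in dura -0.0574 without prolif_cells and -0.0689 with unannotated barcodes. The difference of brain at 72 h from 24 h (2.44) was 3.71 with at least 3 genes, 1.19 with at least 8, 4.45 without thinning, 1.07 with 500 UMIs and 1.12 without prolif_cells. The scores of NK and Tc were -0.012 and -0.22 with a pseudocount of 1. The causes were not tested. No paired analysis was possible because only the brain libraries at 24 h carry replicate numbers.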
